A study of Mus musculus with 6 samples.

Results

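Hox cluster genes encode homeodomain transcription factors. They were defined here as every gene whose platform symbol is Hoxa, Hoxb, Hoxc or Hoxd followed only by digits, with only probe sets annotated to a single gene used. The arrays held 33 such genes on 48 probe sets, of 18193 genes and 45037 probe sets in all. Each gene was summarised by the probe set with the highest mean over the 6 arrays.

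The arrays compared 3 RNA samples of a Dppa4 knockout mouse embryonic stem (ES) cell line, CI#243.12, with 3 of its parental line CI#84.2, which is hemizygous for Dppa4. Each group is thus a single cell line. The parental cells already lack a copy of the gene, and feeder layers of mouse embryonic fibroblasts were present in both cultures. All values are deposited RMA values (robust multi-array average) on the log2 scale, and changes are knockout minus parental. Dppa4 itself, on probe set 1429597_at, read 8.68, 8.84 and 8.68 in knockout cells, against 10.30, 10.35 and 10.45 in parental cells. Its change was -1.63 (SE 0.08, adjusted p = 0.000112, limma); its position relative to the deletion is unknown here, and a probe set outside the deleted part would check nothing.

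In mammals the Hox genes lie in 4 clusters, and genes at the same position in different clusters are paralogues with related sequence. Low paralogue numbers are expressed toward the head and high numbers toward the tail and in the limbs, in an order that follows the position along the cluster. In undifferentiated ES cells the clusters are classical Polycomb targets that carry activating and repressive histone marks together and are held at low expression. Fibroblasts, in contrast, keep a Hox expression pattern that reflects their site of origin in the body. RNA from these cultures contains both cell types, so a difference in the number of cells of a type and a difference in RNA per cell cannot be told apart.

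No Hox gene differed between knockout and parental cells after adjustment over all probe sets. Of 33 measured genes, 0 were higher and 0 lower at an adjusted p under 0.05 (limma), where 0.605% of all genes passed, 0.0934% higher and 0.511% lower. Of the 48 Hox probe sets, 0 passed, against 0.402% of all probe sets. At an unadjusted p under 0.05, 1 Hox gene was higher (3.03%, against 4.66% of all genes) and 2 were lower (6.06%, against 6.37%). The lowest adjusted p (limma) was 0.497 among the chosen probe sets, for Hoxc8, and 0.455 among all 48, for Hoxd13 on 1422239_at. Changes ran from -0.26 for Hoxb9 to 0.31 for Hoxc8, with a median of 0.09, against a median of 0.00 over all genes. Every one of the 33 confidence intervals (95%, limma) lay within log2 1 of no change, so none included a 2-fold difference in the array value. This was so for 99.1% of all genes. The Hox intervals bound the array value, and not the transcript in either cell type of the mixed RNA. At the least for the 9 Hox genes not above background (defined below) they cannot exclude a 2-fold difference in transcript. A value at or near background need not follow the transcript. The widest reach of any Hox interval was 0.65, or 1.56-fold, on Hoxd13.

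A background level was taken from olfactory and vomeronasal receptor genes, which neither ES cells nor fibroblasts are known for expressing. The 95th percentile of their 80 probe set means was 3.78. By that measure 24 of the 33 Hox genes had a group mean above background (72.7%), close to the 73.5% of all genes. They were 7 of 9 Hoxa genes, 5 of 9 Hoxb genes, 7 of 7 Hoxc genes and 5 of 8 Hoxd genes. Sorted by paralogue number, 3 of 7 genes with numbers 1 to 3, 9 of 12 with numbers 4 to 8 and 12 of 14 with numbers 9 to 13 lay above it. This count takes the higher group mean of a gene, whereas the level comes from means over all arrays. On all 6 arrays 20 of the 33 Hox genes exceeded the level, against 12522 of all 18193 genes. By class these were 3 of 7, 8 of 12 and 9 of 14. The level is a yardstick across probe sets of unequal response. At the 99th percentile of the receptors, 4.90, the count was 13 of 33, against 10526 of all 18193 genes. At that level the Hox share was thus below that of all genes. Those 13 were Hoxa5, Hoxa7, Hoxa9, Hoxa11, Hoxb2, Hoxb3, Hoxb6, Hoxc6, Hoxc8, Hoxc9, Hoxd8, Hoxd9 and Hoxd13.

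**Figure D1:**
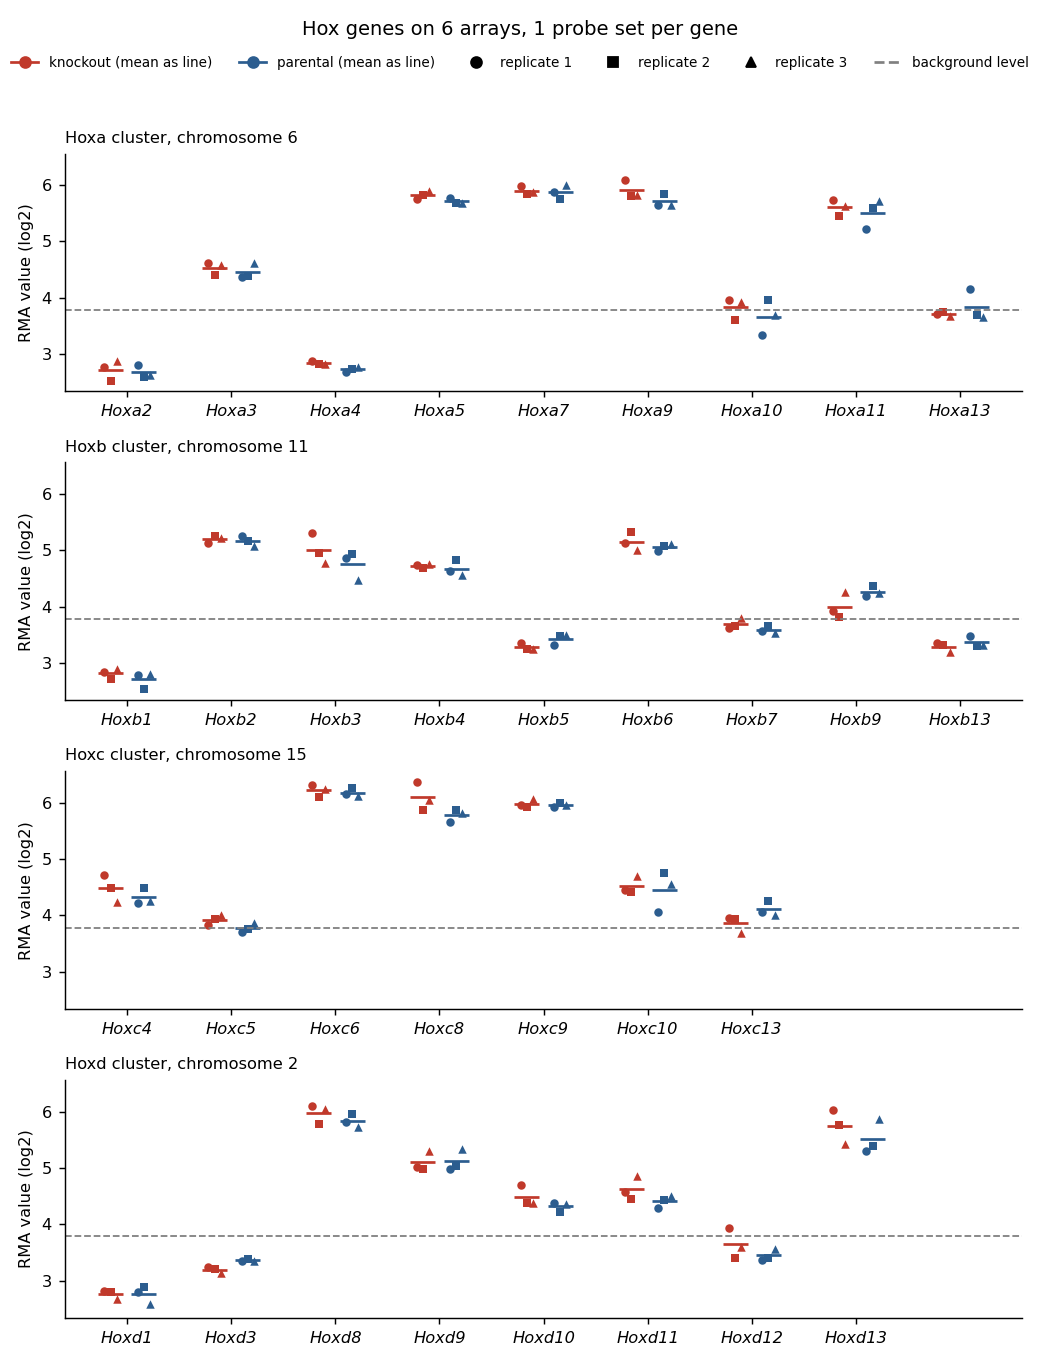
Deposited RMA values (log2, vertical axis) of the 33 Hox genes on each array, in 4 panels by cluster. Red points are the 3 knockout arrays, blue points the 3 parental arrays, short lines the group means and the dashed line the background level of 3.78; the groups overlap for 30 of the genes.

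RefSeq promoter windows, from 250 bases before to 50 after an annotated start (build GRCm38.p6), were at hand for 19 of the 33 genes in 21 windows. The windows are shown because CG dinucleotides, the sites of DNA methylation in mammals, are dense in many promoters of developmental regulators. The Hox windows held a median of 15 CG dinucleotides, against 7 over 32851 windows of all genes, and their median GC content was 58.0%, against 52.7%. Within the Hox windows the number ran from 4 to 45. The 16 windows of genes above background had a median of 17.5, and the 5 windows of genes not above it had 13. The TATA motif TATAAA, searched on both strands, was found in 2 of the 21 windows (9.52%) and in 13.6% of all windows. Given below are, from the Hoxa and the Hoxd cluster, a gene above background and a gene not above it, chosen after their values were seen. Capitals mark CG dinucleotides.
Hoxa9, above background, chr6:52227321-52227620, minus strand, 4 CG dinucleotides: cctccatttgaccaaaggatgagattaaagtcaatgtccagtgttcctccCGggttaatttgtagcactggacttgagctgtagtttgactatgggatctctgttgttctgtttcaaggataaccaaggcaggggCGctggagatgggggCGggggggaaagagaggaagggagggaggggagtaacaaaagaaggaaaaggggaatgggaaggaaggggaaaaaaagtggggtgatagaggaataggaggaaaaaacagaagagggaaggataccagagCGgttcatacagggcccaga
Hoxa2, not above background, chr6:52164782-52165081, minus strand, 9 CG dinucleotides: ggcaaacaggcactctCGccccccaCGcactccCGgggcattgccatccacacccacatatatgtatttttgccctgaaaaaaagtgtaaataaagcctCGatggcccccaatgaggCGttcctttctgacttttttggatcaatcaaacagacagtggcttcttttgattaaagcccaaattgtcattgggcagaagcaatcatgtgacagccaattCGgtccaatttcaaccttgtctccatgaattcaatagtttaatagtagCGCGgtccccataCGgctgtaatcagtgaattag
Hoxd13, above background, chr2:74667975-74668274, plus strand, 37 CG dinucleotides: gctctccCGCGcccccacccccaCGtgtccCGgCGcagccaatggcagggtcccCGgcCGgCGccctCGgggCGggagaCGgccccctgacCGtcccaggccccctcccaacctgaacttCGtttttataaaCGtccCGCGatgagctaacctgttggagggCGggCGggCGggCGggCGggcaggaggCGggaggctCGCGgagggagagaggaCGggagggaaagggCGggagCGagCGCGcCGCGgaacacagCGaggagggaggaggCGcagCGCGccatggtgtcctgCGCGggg
Hoxd1, not above background, chr2:74762730-74763029, plus strand, 29 CG dinucleotides: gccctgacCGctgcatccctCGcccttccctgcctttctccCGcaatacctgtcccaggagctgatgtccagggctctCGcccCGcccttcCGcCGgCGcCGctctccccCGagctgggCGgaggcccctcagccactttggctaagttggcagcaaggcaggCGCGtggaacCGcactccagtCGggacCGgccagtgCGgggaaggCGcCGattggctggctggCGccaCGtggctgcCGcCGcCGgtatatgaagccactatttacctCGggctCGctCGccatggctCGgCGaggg
The CG-poor Hoxa9 window and the CG-rich Hoxd13 window thus both belong to genes above background, and the CG-rich Hoxd1 window to a gene not above it.

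Genes with paralogue numbers 1 to 3 pattern the hindbrain and the pharyngeal arches. Above background in this class were Hoxa3, Hoxb2 and Hoxb3. Hoxa3, required for the thymus and parathyroid glands, read 4.61, 4.40 and 4.58 in knockout cells, against 4.37, 4.38 and 4.62 in parental cells. Hoxb2, which acts in the hindbrain and in facial nerve formation, read 5.13, 5.25 and 5.22 in knockout cells, against 5.25, 5.17 and 5.08 in parental cells. The groups overlapped for both genes, and the changes were 0.07 (SE 0.10) and 0.03 (SE 0.08). Hoxb3 read 5.30, 4.95 and 4.78 in knockout cells, against 4.87, 4.93 and 4.48 in parental cells. Its change of 0.25 (SE 0.16, adjusted p = 0.697, limma) was not shared by its other probe set, 1427605_at, which gave -0.11 (SE 0.09). Without knockout replicate 1, the highest of the arrays, the change of Hoxb3 was 0.105, and without parental replicate 3, the lowest, it was 0.11.

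The remaining genes of that class, Hoxa2, Hoxb1, Hoxd1 and Hoxd3, did not exceed background on any array. Hoxa2 specifies the second pharyngeal arch and Hoxb1 the fourth rhombomere of the hindbrain. Hoxd3 read 3.24, 3.21 and 3.14 in knockout cells, against 3.35, 3.39 and 3.35 in parental cells. All knockout arrays were below all parental arrays, by a change of -0.17 (SE 0.07, unadjusted p = 0.0450, adjusted p = 0.516, limma) on a probe set below background. Groups failed to overlap for 3 Hox genes in all, Hoxa4, Hoxc13 and Hoxd3, which is 9.09% of the 33, against 16.3% of all genes (7.23% with knockout higher and 9.11% with knockout lower). Hoxa4 lay in the other direction, at 2.83 to 2.87 in knockout cells against 2.68 to 2.77 in parental cells, likewise below background.

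Paralogue numbers 4 to 8 are genes of the neck and trunk. Hoxc8, which specifies vertebrae and motor neuron pools at the level of the forelimb and thorax, read 6.37, 5.88 and 6.05 in knockout cells, against 5.66, 5.88 and 5.82 in parental cells. By the chosen probe sets it was the only Hox gene with an unadjusted p under 0.05 in the higher direction (change 0.31, SE 0.13, interval 0.02 to 0.61, unadjusted p = 0.0393, adjusted p = 0.497, limma). Knockout replicate 2 equalled parental replicate 2, and without knockout replicate 1 the change was 0.18. Hoxc6, a gene of the thorax and of forelimb motor neurons, read 6.31, 6.11 and 6.24 in knockout cells, against 6.15, 6.26 and 6.12 in parental cells. The change of 0.04 (SE 0.08) on this probe set stood beside -0.10 (SE 0.10) and -0.02 (SE 0.11) on its other probe sets, so the sign for Hoxc6 depended on the probe set.

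In the Hoxa cluster, Hoxa5, a gene needed for lung development and patterning of the neck, read 5.75, 5.83 and 5.89 in knockout cells, against 5.78, 5.68 and 5.69 in parental cells (change 0.11, SE 0.08). Its other probe set, 1448926_at, gave 0.22 (SE 0.17). Hoxa7, a trunk gene, read 5.99, 5.85 and 5.87 in knockout cells, against 5.87, 5.75 and 6.0 in parental cells (change 0.03, SE 0.09). Neither gene separated the groups. Hoxd8 read 6.10, 5.78 and 6.05 in knockout cells, against 5.81, 5.96 and 5.72 in parental cells (change 0.15, SE 0.11), and its other probe set gave 0.09 (SE 0.11). Without knockout replicate 1 the change of Hoxd8 was 0.085, and without knockout replicate 2 it was 0.245.

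Hoxb4, known for expanding blood stem cells, read 4.74, 4.68 and 4.76 in knockout cells, against 4.64, 4.83 and 4.56 in parental cells. Hoxb6 read 5.13, 5.32 and 5.0 in knockout cells, against 4.99, 5.08 and 5.12 in parental cells. The changes of these Hoxb genes were 0.05 (SE 0.09) and 0.09 (SE 0.10), each smaller than its error, and the knockout values of Hoxb4 lay inside the parental range. Hoxc4 read 4.72, 4.49 and 4.24 in knockout cells, against 4.23, 4.48 and 4.25 in parental cells (change 0.16, SE 0.13). Without knockout replicate 1 the change of Hoxc4 was 0.045, and without knockout replicate 3 it was 0.285. Hoxc5, at 3.83, 3.93 and 4.0 in knockout cells against 3.71, 3.76 and 3.87 in parental cells, exceeded background on 4 of 6 arrays (change 0.14, SE 0.08). Hoxa4, Hoxb5 and Hoxb7 completed this class below background, with changes of 0.11, -0.15 and 0.10.

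Paralogue numbers 9 to 13 act in the lower trunk, the limbs and the urogenital tract. Hoxa9, a regulator of blood progenitors, read 6.09, 5.81 and 5.82 in knockout cells, against 5.65, 5.85 and 5.64 in parental cells (change 0.19, SE 0.10, adjusted p = 0.624, limma). Its second probe set, 1421579_at, gave 0.02 (SE 0.09), and without knockout replicate 1 the change of the first was 0.10. Hoxc9, which sets the identity of thoracic motor neurons, read 5.97, 5.92 and 6.06 in knockout cells, against 5.92, 5.99 and 5.97 in parental cells. With a change of 0.02 (SE 0.07, interval -0.15 to 0.19), Hoxc9 had the narrowest interval of the genes above background in this class. Hoxd9 read 5.01, 4.99 and 5.30 in knockout cells, against 4.98, 5.04 and 5.34 in parental cells (change -0.02, SE 0.12).

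Among those with values in the opposite direction was Hoxb9, which patterns the rib cage together with its paralogues. Hoxb9 read 3.93, 3.81 and 4.26 in knockout cells, against 4.19, 4.36 and 4.24 in parental cells. Its change of -0.26 (SE 0.12, adjusted p = 0.545, limma) rested on knockout replicates 1 and 2, since replicate 3 lay within the parental range, and was -0.17 without replicate 2. Hoxc13, required for hair and nails, read 3.96, 3.94 and 3.68 in knockout cells, against 4.07, 4.25 and 4.0 in parental cells. Here the groups did not overlap, by a margin of hundredths, with a change of -0.25 (SE 0.11, unadjusted p = 0.0458, adjusted p = 0.517, limma). Without knockout replicate 3 it was -0.157. Hoxb13, a gene of the tail end and the prostate, was below background, with a change of -0.08 (SE 0.08).

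Hoxa10 and Hoxa11 act in limb, kidney and uterus. Hoxa10 read 3.96, 3.60 and 3.93 in knockout cells, against 3.34, 3.96 and 3.70 in parental cells, above background on 3 of 6 arrays (change 0.16, SE 0.16). Hoxa11 read 5.74, 5.45 and 5.63 in knockout cells, against 5.23, 5.59 and 5.71 in parental cells (change 0.10, SE 0.13). Parental replicate 1 was the lowest array for both genes. Without it the change of Hoxa10 was 0 and that of Hoxa11 was -0.04; without parental replicate 2 the change of Hoxa10 was 0.31, and without parental replicate 3 that of Hoxa11 was 0.197. Hoxa13, a gene of digits and the genital tubercle, read 3.71, 3.75 and 3.68 in knockout cells, against 4.15, 3.69 and 3.66 in parental cells. Only parental replicate 1 was above background. The change was -0.12 (SE 0.13), and without that array it was 0.04. Hoxc10, a hindlimb motor neuron gene, read 4.45, 4.41 and 4.70 in knockout cells, against 4.06, 4.76 and 4.56 in parental cells (change 0.06, SE 0.17).

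The Hoxd genes 10 to 13 build the limb skeleton and share regulatory regions outside the cluster. Hoxd10 read 4.69, 4.37 and 4.38 in knockout cells, against 4.38, 4.22 and 4.36 in parental cells (change 0.16, SE 0.10). Hoxd11 read 4.57, 4.45 and 4.86 in knockout cells, against 4.29, 4.44 and 4.50 in parental cells (change 0.22, SE 0.12). The ranges of both neighbours overlapped between the groups. Without knockout replicate 1 the change of Hoxd10 was 0.055, and without knockout replicate 3 that of Hoxd11 was 0.10. Hoxd13, the gene of the digits, read 6.03, 5.77 and 5.43 in knockout cells, against 5.30, 5.39 and 5.87 in parental cells (change 0.22, SE 0.18, adjusted p = 0.780, limma). On its other probe set, 1422239_at, it read 4.98, 4.88 and 4.61 in knockout cells, against 4.57, 4.55 and 4.54 in parental cells (change 0.27, SE 0.10, adjusted p = 0.455). On that probe set the groups did not overlap, whereas on the brighter one parental replicate 3 exceeded knockout replicates 2 and 3. On the brighter probe set the change was 0.08 without knockout replicate 1 and 0.398 without parental replicate 3. Hoxd12 was below background by its group means (change 0.20, SE 0.13).

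**Figure D2:**
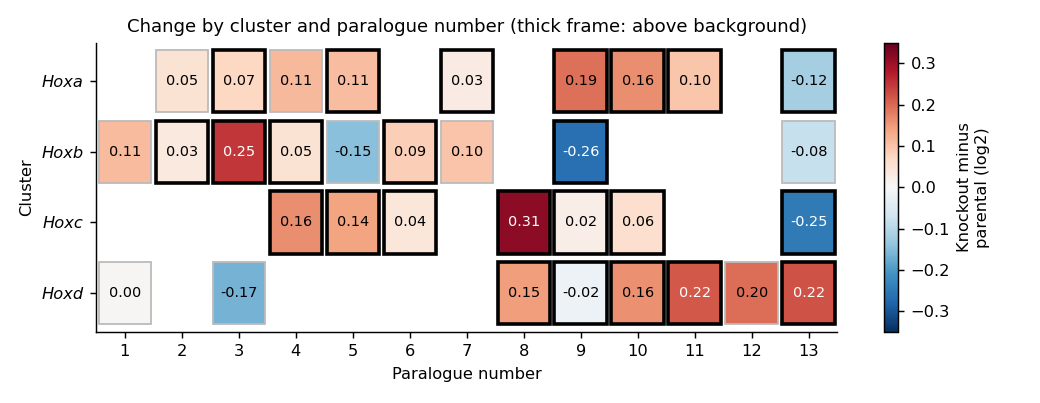
Change of each measured Hox gene (knockout minus parental, log2, number and colour), by cluster (rows) and paralogue number (columns); thick frames mark genes above background and blank positions were not measured or do not exist. Values below 0 stand at 7 positions, 5 of them at paralogue numbers 9 to 13 (Hoxb9, Hoxd9, Hoxa13, Hoxb13 and Hoxc13).

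Small positive differences were spread over the clusters. A change above 0 was found for 26 of 33 Hox genes (78.8%, against 49.9% of all genes), namely 8 of 9 in Hoxa, 6 of 9 in Hoxb, 6 of 7 in Hoxc and 6 of 8 in Hoxd. With the probe set of lowest mean in place of the highest, 22 of 33 were above 0 and the median was 0.033, against 0.087. The cluster medians were 0.10 for Hoxa, 0.05 for Hoxb, 0.06 for Hoxc and 0.15 for Hoxd. By paralogue number the medians were 0.05 for 1 to 3, 0.10 for 4 to 8 and 0.08 for 9 to 13. These are descriptions of genes that share the same 6 arrays. Of 11 genes with several probe sets, 6 had the same sign on all of them (Hoxa4, Hoxa5, Hoxa9, Hoxa10, Hoxd8 and Hoxd13, each above 0) and 5 had mixed signs (Hoxa3, Hoxb3, Hoxb4, Hoxc5 and Hoxc6).

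**Figure D3:**
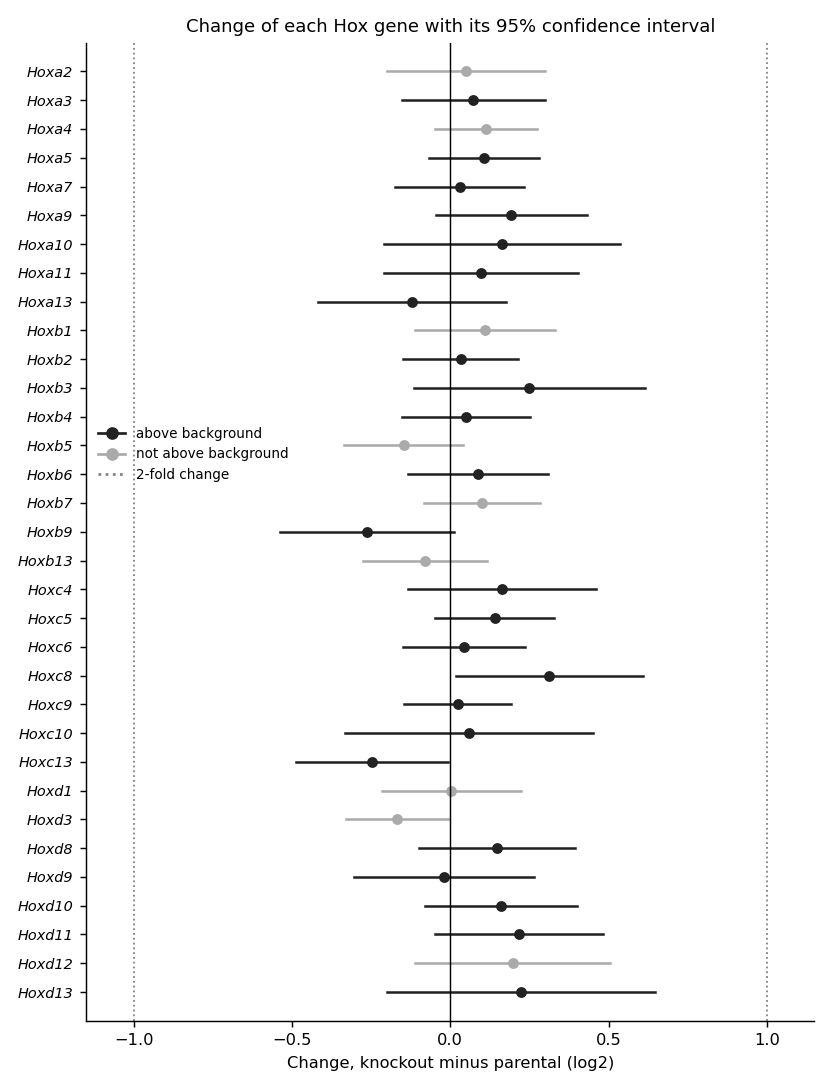
Change of each of the 33 Hox genes (points, log2, knockout minus parental) with its 95% confidence interval from limma (bars); black marks genes above background, grey those not above it, and dotted lines a 2-fold change. No interval reaches a 2-fold change, and those of Hoxc8, Hoxc13 and Hoxd3 alone leave out 0.

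The difference was unevenly spread over the arrays. Knockout replicate 1 alone held the highest value for 11 of 33 Hox genes (33.3%), against 15.6% of all genes, and the lowest for 0. Parental replicate 1 alone held the lowest value for 13 of 33 (39.4%), against 13.8% of all genes. On the 15 other probe sets of Hox genes, parental replicate 1 held the lowest value for 0 and knockout replicate 1 the highest for 6. The mean over the 33 genes was 4.57, 4.44 and 4.50 in knockout cells, against 4.39, 4.48 and 4.45 in parental cells. Knockout replicate 2 was thus below parental replicates 2 and 3. The median change was 0.050 without knockout replicate 1, 0.048 without knockout replicate 3 and 0.050 without parental replicate 1.

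Fibroblast markers ranked the arrays in part as the Hox genes did. The mean of 29 measured fibroblast genes was 10.68, 10.45 and 10.59 in knockout cells, against 10.42, 10.54 and 10.41 in parental cells. In both lists knockout replicate 1 was highest, then knockout replicate 3, then parental replicate 2. Knockout replicate 1 alone held the highest value for 14 of the 29 fibroblast genes (48.3%), a larger share than among the Hox genes. Of the 29 changes, 26 were above 0 (89.7%) and 2 below 0. All 29 fibroblast genes were above background, 0 of 29 passed the test of limma, and their median change was 0.12. At an unadjusted p under 0.05 by limma, 2 were higher (6.90%, against 4.66% of all genes) and 0 lower (against 6.37%). Their members with the highest values were the collagen genes Col1a2 (12.71 ± 0.07 in knockout and 12.61 ± 0.08 in parental cells, SD, n = 3) and Col3a1 (12.34 ± 0.26 in knockout and 12.16 ± 0.30 in parental cells, SD, n = 3). With the feeder mean as a covariate, a setting added after the data were seen, the median change of the Hox genes was 0.02, 17 of 33 changes were above 0, and 0 genes were called.

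The ES cell genes had 5 changes above 0 and 13 below 0 among 18 measured genes, and 0 passed the test. Their mean was 10.08, 10.17 and 10.14 in knockout cells, against 10.29, 10.33 and 10.26 in parental cells, without overlap. All 18 were above background. By limma 0 were called. At an unadjusted p under 0.05, 0 were higher (against 4.66% of all genes) and 7 lower (38.9%, against 6.37%). The groups did not overlap for 11 of the 18 (61.1%, against 16.3% of all genes), 10 of them lower and 1 higher in knockout. The median change was -0.095. Dppa5a, with the highest values of the list, read 13.51, 13.48 and 13.54 in knockout cells, against 13.46, 13.42 and 13.40 in parental cells, higher in knockout without overlap (change 0.08, SE 0.07, adjusted p = 0.781, limma). Pou5f1, which encodes Oct4, read 11.85, 11.86 and 11.83 in knockout cells, against 11.87, 11.96 and 11.89 in parental cells, lower in knockout without overlap (change -0.06, SE 0.07, adjusted p = 0.852, limma).

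**Figure D4:**
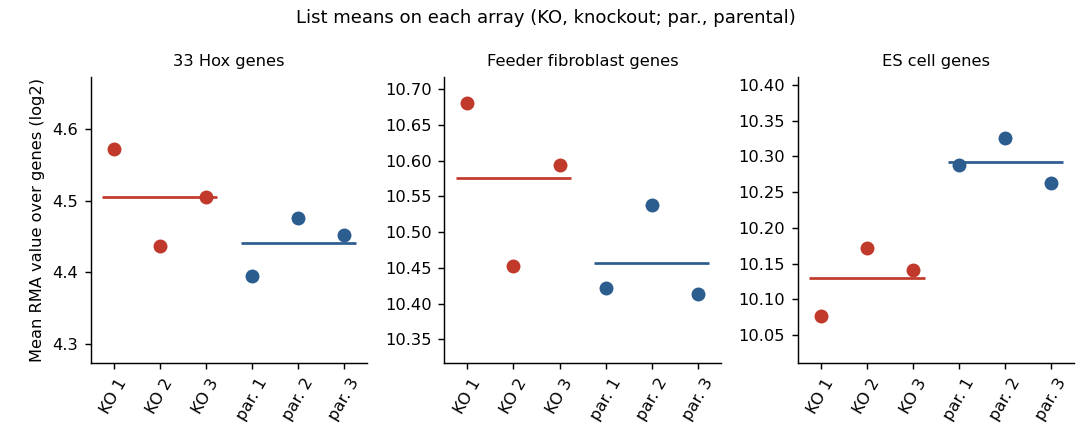
Mean RMA value (log2) over the 33 Hox genes, 29 feeder fibroblast genes and 18 ES cell genes on each array, red for knockout and blue for parental arrays, with lines at the group means; each vertical axis spans the same width. Knockout replicate 1 is highest for Hox and feeder genes and lowest for ES cell genes.

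Genes that work with or upstream of Hox proteins were examined on the same arrays. Pbx, Meis and Pknox proteins are homeodomain cofactors that bind DNA together with Hox proteins. Of 8 measured, all above background, 0 passed, and the median change was 0.12. Pbx2 read 7.07, 6.80 and 6.77 in knockout cells, against 6.59, 6.75 and 6.48 in parental cells, a change of 0.27 (SE 0.11, adjusted p = 0.484, limma) without overlap, and Pknox1 had a change of 0.08 (SE 0.08). Of 27 measured regulators of Hox transcription, which include Cdx factors, trithorax and Polycomb subunits and retinoic acid receptors, 0 passed and the median was -0.01. Eed, a subunit of Polycomb repressive complex 2, averaged 10.98 ± 0.10 in knockout and 10.99 ± 0.11 in parental cells (SD, n = 3), and Ash2l, a trithorax subunit, had a change of -0.02 (SE 0.07).

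Retinoic acid is an inducer of Hox genes. Of 13 measured genes of its response and metabolism, 0 passed, with a median of 0.04; the binding protein genes Crabp1 and Crabp2 had changes of -0.03 (SE 0.24) and 0.01 (SE 0.12). Among 18 related homeobox genes outside the clusters, 10 were above background, 0 passed and the median was -0.03, with Msx1 at 0.09 (SE 0.14) and Meox1 at 0.02 (SE 0.13). For 18 transcription factors that mark the position of mesenchyme the median was 0.05 and 0 passed. Prrx1, with the highest values of these, read 10.06, 9.66 and 10.03 in knockout cells, against 9.87, 10.03 and 9.63 in parental cells, and Tbx3 had a change of -0.18 (SE 0.13).

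Of 19 measured genes listed as neighbours of the clusters, 1 passed, where 0.605% of all genes did. Cbx5, a heterochromatin protein gene of chromosome 15, which also holds the Hoxc cluster, changed by -0.53 (SE 0.08, adjusted p = 0.0461, limma) on 1454636_at, while its other 4 probe sets gave -0.19 to 0.09. The median over the neighbours was -0.07, with 5 changes above 0 (26.3%, against 49.9% of all genes) and 13 below 0. At an unadjusted p under 0.05 by limma, 4 neighbours were lower (21.1%, against 6.37% of all genes) and 0 higher (against 4.66%). Those with the highest values, Atp5g1 and Copz1, had changes of -0.28 (SE 0.07, adjusted p = 0.249, limma) and 0.03 (SE 0.07). Antisense transcripts of the clusters are no members. Hoxb5os, on the single-gene probe set 1447886_at, read 6.28, 5.98 and 6.18 in knockout cells, against 6.08, 5.92 and 6.07 in parental cells (change 0.12, SE 0.10). Hoxa11os, on 1452400_a_at, read 3.95, 3.71 and 3.66 in knockout cells, against 3.60, 3.56 and 3.49 in parental cells, without overlap. Its change there was 0.22 (SE 0.09, unadjusted p = 0.0436, adjusted p = 0.511, limma), with both group means below background. The other Hoxa11os probe set gave -0.07 (SE 0.10), and each Hoxd3os1 probe set gave 0.03. Probe sets shared by Hoxd3 and Hoxd4 gave 0.14 (SE 0.07) and 0.12 (SE 0.11), and the probe set shared by Hoxb7 and Hoxb8 gave -0.05 (SE 0.07); these cannot be assigned to a single gene.

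Markers of other cell types in which Hox genes are active were also read. Of all genes, 0.605% passed the test of limma. In the nascent mesoderm list 0 of 10 measured genes passed (median -0.04), with Eomes at 0.22 (SE 0.15) and Msgn1 at 0.07 (SE 0.12). In the neural progenitor list 1 of 10 passed, the neuronal tubulin gene Tubb3, which fell by 0.88 (SE 0.10, adjusted p = 0.00823, limma); Nes had a change of 0.05 (SE 0.09). In the endothelium and blood list 1 of 10 passed, the angiopoietin receptor gene Tek. Tek read 4.72, 4.39 and 4.15 in knockout cells, against 6.18, 5.92 and 5.84 in parental cells (change -1.56, SE 0.15, adjusted p = 0.00469, limma). The members with the highest values, Lyz2 and Cd68, had changes of 0.34 (SE 0.20) and 0.19 (SE 0.11). List means without overlap between the groups were those of the ES cell genes and the cluster neighbours, and of endothelium and blood. In the endothelium and blood list Tek had by far the largest change, while the median was 0.02 and 6 of 10 changes were above 0. The part of any of these cell types in the Hox values was not tested. The feeder covariate cannot assign a part to feeders, since the feeder mean itself differed between the groups (10.58 in knockout and 10.46 in parental cells).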

How the data were processed

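Total RNA of 6 samples, 3 of the knockout and 3 of the parental line, was put on Affymetrix arrays with biotin label, per the labels' protocols. The authors deposited log2 values per probe set, made with RMA per the submitters' processing notes; software, version and settings are not stated there, and the log2 scale was read from the values. Because RMA equalises the distribution of arrays, a shift common to most transcripts cannot be seen. Array medians lay between 4.21 and 4.25, pairwise correlations between 0.994 and 0.997, and 0 pairs of arrays held identical values. Precision is limited by the number of arrays.

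Of 45101 probe sets, 64 controls were left out. The platform annotation gave 1 gene symbol for 34945 of the others, several for 932 and none for 9160; all 48 Hox probe sets matched a RefSeq gene of the same symbol (GRCm38.p6). The test was limma's moderated linear model (version 3.58.1 in R 4.3.3; two-sided, groups only) over 45037 probe sets with Benjamini-Hochberg adjustment and a threshold of 0.05; the fit was tested on simulated data. SE and intervals are of the moderated fit, SD of 3 arrays. Replicates are numbered in the labels, but nothing states that they came from separate cultures, so p-values cover the spread among these samples alone, and that spread may be technical.

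The members and the gene lists were chosen with earlier results of these data known. Every Hox gene above background was named with its values, and those below it where the unadjusted p was under 0.05; from other lists, the genes that passed (up to 4) and the 2 with the highest mean were named. Further names, such as probe sets shared by several genes, were chosen after their values were seen.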

Additional observations from a re-analysis of the deposited data

How the results depend on the processing

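The count of 0 Hox genes called by limma was the same under all alternatives run: a further quantile normalization, subtraction of array medians, the replicate block, an intensity trend with robust prior, only probe sets above background, no x_at or s_at probe sets, the mean of all probe sets or the probe set with the lowest mean per gene, the feeder covariate, and leaving out each array; the lowest adjusted p of a named gene in any was 0.311. Genes called over the whole table numbered 41 to 185 in these settings, against 110. The median Hox change was 0.02 with the feeder covariate and 0.033 with the lowest probe set, and ran up to 0.12 without knockout replicate 2, and was 0.09 with the replicate block. The number above background was 24, 13 at the 99th percentile of the receptors, 25 at the 90th, and 21 to 24 under the other settings. Same-numbered arrays did not deviate together (correlations 0.11, -0.36 and -0.29). The highest correlations were 0.38, for knockout replicate 2 with parental replicate 3, and 0.37, for knockout replicate 3 with parental replicate 2. The replicate block pairs arrays by number alone, so a pairing across numbers was not tested. With that block 0 Hox genes were called.

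Of 374 values for 25 named Hox genes, none of them called, 26 turned sign, in 13 genes. Hoxc6 was -0.10 without x_at and s_at probe sets and -0.026 as the mean of its probe sets. With the lowest probe set, Hoxa3 was -0.057, Hoxb4 -0.027, Hoxb3 -0.11 and Hoxc6 -0.017. With the feeder covariate, Hoxc6 was -0.067, Hoxc9 -0.014, Hoxd8 -0.032, Hoxa11 -0.040, Hoxb4 -0.037, Hoxc10 -0.084 and Hoxa10 -0.092. Without 1 array the values ran, by gene, for Hoxc6 from -0.0017 to 0.098, Hoxa7 from -0.032 to 0.093, Hoxd9 from -0.12 to 0.090, Hoxc9 from -0.015 to 0.055, Hoxc10 from -0.14 to 0.21, Hoxa11 from -0.043 to 0.20, Hoxa13 from -0.21 to 0.038, Hoxb2 from -0.010 to 0.075 and Hoxb4 from -0.0083 to 0.13. The cause was not tested. At 3 arrays a group, differences of the size seen for most Hox genes are not resolved from the spread between arrays.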
